A study of Mus musculus with 18 samples.

Results

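Late OKSM cultures are bulk cultures of mouse embryonic fibroblasts (MEFs) in which Oct4, Klf4, Sox2 and Myc (OKSM) had been expressed for 8, 10 or 12 days with no added compound. They were set against the only array of the same kind of fibroblasts with no doxycycline, so that 4 of the series' 18 arrays carried the comparison, 3 late OKSM arrays and 1 MEF array. The arrays were picked by the treatment and day in their labels, and no measured value entered that rule. The fibroblasts came from a reprogrammable mouse, which carries the factors under a doxycycline switch, and all samples were labelled with the strain Black6-129X1/SvJ. The series followed cultures with OKSM alone and cultures with OKSM plus ascorbic acid and a GSK3 inhibitor (AGi), each read once on days 2, 4, 6, 8, 10 and 12. Here days 2, 4 and 6 of OKSM alone served as early cultures and days 8, 10 and 12 of OKSM with AGi as the most similar late cultures. An array of embryonic stem cells (ESCs) and an array of Thy1+ cells sorted on day 3 of OKSM and labelled refractory are quoted for reference. Each group is a set of days with 1 array a day, and the labels do not say whether the days came from separate cultures, so that an SD or p-value below measures the spread between days. The MEF state rested on 1 array, so differences from it are described by size with no p-value.

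A fibroblast holds its identity through mesenchymal transcription factors, a collagen-rich matrix, and a contractile apparatus of actin, myosin and their TGF-beta-driven regulators. Expression of OKSM is known to silence part of this programme within days and to switch on epithelial genes, while the network of the cells' own pluripotency genes opens later and in a minority of cells. Cultures given the factors alone therefore hold many cells that do not complete the change, and the comparison with uninduced cells asks what such cultures still hold away from the fibroblast state and what has gone back to it.

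Levels are the authors' deposited log2 values, on which a difference of 1 is 2-fold. A gene was called higher or lower when each of the 3 late arrays lay at least 1 log2 from the MEF array on the same side, and called returned when the mean of days 2, 4 and 6 lay at least 1 log2 from MEF and every late array lay within 0.5 of it. A total of 14239 genes were read at or above the array median, which lay between 6.32 and 6.46 log2, in MEF or in at least 2 of 3 arrays of an early or late group of either arm. The 10 fibroblast markers averaged 9.94 log2 in MEF, 10.39, 10.59 and 10.73 on days 8, 10 and 12, and 7.57 in ESCs. Each of the 10 lay at or above the array median on the late arrays, but so did 9 of 10 in MEF and 9 of 10 in ESCs. Reaching the median therefore does not mark fibroblasts. The 18 hybridisation control probe sets read lower than in MEF on every OKSM array, by means of -0.42, -0.36 and -0.42 log2 on days 8, 10 and 12, and no single control differed by as much as the 1 log2 threshold. In 21 genes, all 6 arrays of days 8 to 12 in both arms stood at least 1 log2 apart from all 6 arrays of days 2 to 6, 15 of them above and 6 below. Judged by the midpoint between the late and early means, the MEF array lay on the early side for 16 of the 21. The Thy1+ array sorted on day 3 of OKSM lay on the late side for 7 of the 21. Lum and Pdgfra, which are among the 10 fibroblast markers, belong to the 21. Lum read 4.83 in MEF and at least 7.70 on each late array of both arms, which lifts the late means of the 10. The list of fibroblast surface and identity genes had a late median of -0.25 log2 from MEF. The labels do not say whether all days came from the same preparation of fibroblasts, and day and preparation cannot be told apart.

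The late cultures stood slightly further from MEF than the early cultures, with more genes above it. The median absolute difference over all genes was 0.29, 0.33 and 0.31 log2 on days 8, 10 and 12, against 0.28, 0.26 and 0.26 on days 2, 4 and 6. On days 8, 10 and 12, 906, 1131 and 1087 genes lay at least 1 log2 above MEF, against 657, 648 and 727 on days 2, 4 and 6. The genes below MEF numbered 428, 481 and 499 on the late days, against 477, 561 and 641 on the early days. On all 3 late arrays together, 749 of 14239 genes were higher (5.26%) and 347 were lower (2.44%). Their median differences were 1.62 and -1.55 log2. The split depended on the scaling: with each array shifted by its hybridisation controls, an alternative added after the data were seen, 1724 genes were higher and 166 lower, and 166 of the 347 lower calls were kept. Without the 21 genes that separate the late days in both arms, 740 and 341 remained. The threshold passed between genes with almost equal values: the smallest of the 3 late differences was 1.0006 for Glod4, which was called, and 0.9995 for Cdadc1, which was not. On the lower side its size was 1.0003 for Stx1a, inside, and 0.9973 for Mical1, outside. In bulk samples, fewer cells of a type and less RNA per cell cannot be told apart.

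**Figure D1:**
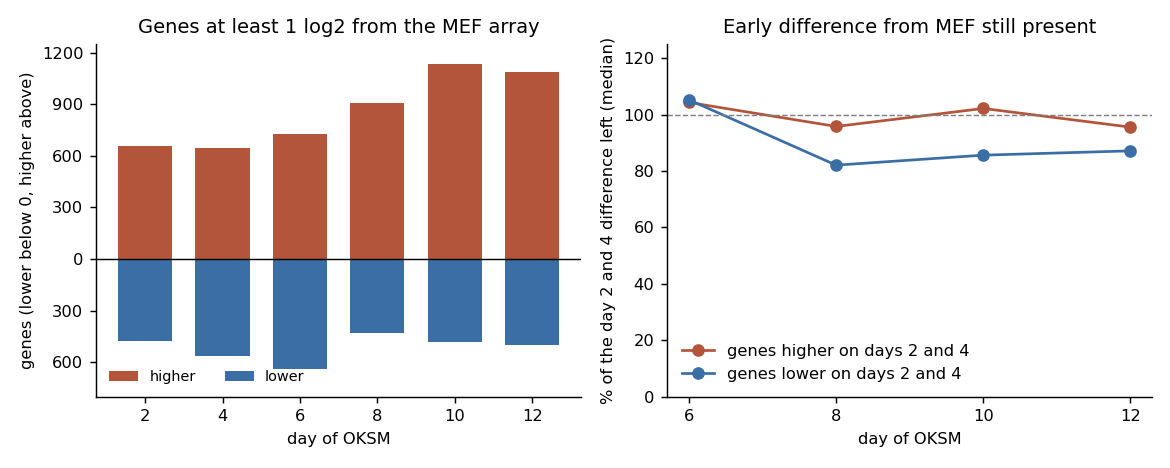
Left, number of genes at least 1 log2 above (red, upwards) or below (blue, downwards) the MEF array on each day of OKSM, 1 array a day. Right, median percent of the mean day 2 and day 4 difference from MEF that was still present on later days, for the 412 genes higher and the 348 genes lower on both of those days; the higher genes stayed between 95.5% and 104.3% and the lower genes fell to between 82.1% and 87.1% from day 8 on.

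Most of the early difference from the MEF array was still read on the late arrays. Among 760 genes that lay at least 1 log2 from MEF on both day 2 and day 4, the median share of that difference left was 104.7% on day 6, 89.0% on day 8, 94.6% on day 10 and 92.3% on day 12. Days 6 to 12 took no part in choosing these genes, but the MEF array entered both the choice and every later difference. A departure of that array alone would read as about 100% left on every day, so the shares are a description with no test. The 412 genes that had been higher kept 95.8%, 102.2% and 95.5% on days 8, 10 and 12, and the 348 that had been lower kept 82.1%, 85.6% and 87.1%. Genes within 0.5 log2 of MEF numbered 3 of 760 on day 6 and 56, 63 and 67 on days 8, 10 and 12.

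Few genes had returned, 9 from above MEF and 55 from below it. Of 638 genes whose early mean was at least 1 log2 above MEF, 444 (69.6%) were still called higher on all late arrays and 9 (1.41%) had returned. Of 510 genes whose early mean was at least 1 log2 below MEF, 248 (48.6%) were still called lower and 55 (10.8%) had returned. The 9 and 55 returned genes make up 0.0632% and 0.386% of all genes tested. Another 124 genes were called higher (0.871% of those tested) and 29 lower (0.204%) although their early mean lay within 0.5 log2 of MEF. The rules ask for every late array, so leaving out a late array can only add genes. Without day 8 the counts of 9 and 124 were 18 and 209. Without day 6, 15 genes had returned from higher. Both sides of these shares used the same MEF array, so the difference between higher and lower genes was not tested.

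**Figure D2:**
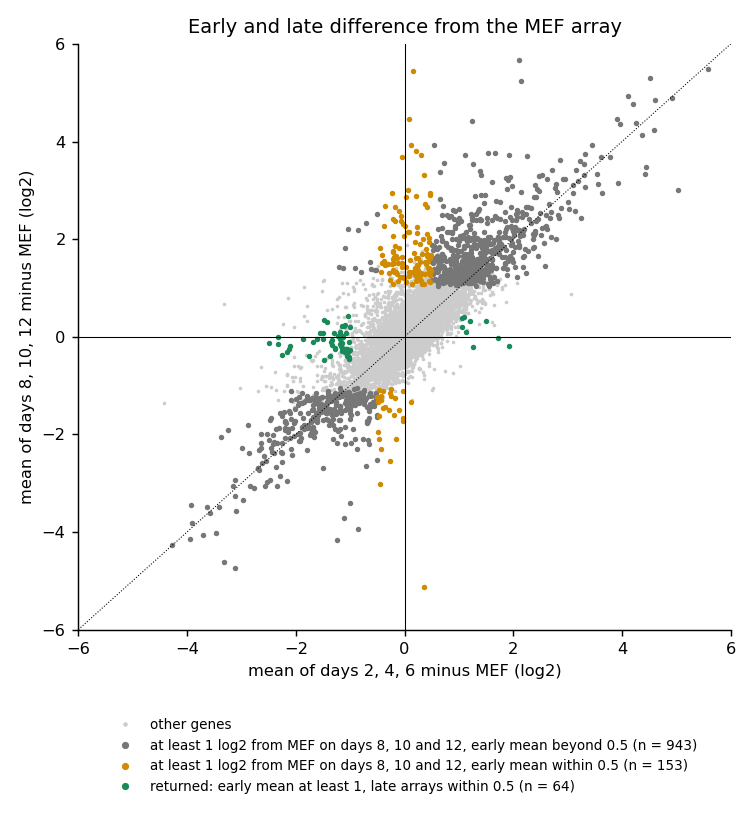
Mean difference from the MEF array on days 8, 10 and 12 (vertical) against that on days 2, 4 and 6 (horizontal), both in log2, 1 point a gene. Both axes share the MEF array, so the dotted line of equal difference is drawn for orientation only. Green points are the 64 returned genes and orange points the 153 genes away from MEF on the late days only.

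Late and early OKSM had 3 arrays each and were compared by a test. In limma with Benjamini-Hochberg adjustment, 1456 genes were higher on days 8, 10 and 12 than on days 2, 4 and 6 (10.2% of those tested) and 866 were lower (6.08%). Of the 749 genes called higher than MEF, 313 also passed this test upwards and 22 downwards. Of the 347 called lower, 85 passed it downwards and 21 upwards. The calls and this test share the late arrays, so agreement in direction is partly built in. The returned and late-only genes were chosen by their early and late arrays, so a late against early gap in them follows from the choice. The counts rested on few arrays: leaving out day 10 gave 546 and 203, day 4 gave 595 and 218, day 12 gave 762 and 285, and day 8 gave 953 and 379. Scaling to the hybridisation controls turned the split into 1231 higher and 223 lower, and quantile normalization repeated on the deposited values into 1194 and 1158.

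Among the genes highest above MEF, several were already high on day 2 and stayed there. Podxl, which encodes the sialomucin podocalyxin, read 5.93 in MEF, 10.69, 11.79 and 12.06 on days 2, 4 and 6, and 11.39, 11.42 and 11.42 on days 8, 10 and 12. The late difference was 5.48 ± 0.02 log2 (SD, n = 3), and the late and early values overlapped (adjusted p = 0.85, limma). Tek, the angiopoietin receptor of endothelial cells, read 5.33 in MEF, 10.17, 10.36 and 10.21 early, and 10.21, 10.28 and 10.16 late. Its early and late arrays overlapped, and the late difference was 4.89 ± 0.06 log2 (SD, n = 3). Of 12 endothelial genes that met the filter, Tek was called higher and Flt1 and Emcn lower, but 3 were higher without day 8 and 2 under the scaling to hybridisation controls. Pecam1, Cdh5 and Kdr together averaged 6.65 in MEF and 6.52, 6.72 and 6.90 on the late days.

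Igfbp3, a secreted carrier of insulin-like growth factors, read 7.64 in MEF and 12.45, 12.51 and 12.56 on days 8, 10 and 12, a difference of 4.86 ± 0.05 log2 (SD, n = 3). It had read 12.02, 12.31 and 12.41 early, below every late array, but the late minus early difference of 0.26 ± 0.11 (SE) did not pass (adjusted p = 0.158, limma). Ceacam1, a cell adhesion molecule of the immunoglobulin family, read 6.36 in MEF, 10.06, 11.27 and 11.29 early and 11.55, 11.81 and 11.64 late. Mme, the membrane metallopeptidase neprilysin, read 6.91 in MEF, 11.22, 11.31 and 10.79 early and 11.34, 11.57 and 12.12 late. Ceacam1 and Mme were thus at least 3 log2 above MEF from day 2 on. Apela, a peptide hormone gene active in pluripotent cells, read 5.13 in MEF, 7.73, 9.64 and 10.37 early, and 10.10, 9.97 and 10.12 late, against 10.78 in ESCs. Shisa3 read 7.33 in MEF and between 11.04 and 12.12 on all 6 OKSM arrays. In Apela and Shisa3 the late and early difference did not pass the test (adjusted p = 0.366 and 0.0748, limma).

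Other genes of the 12 highest were still climbing or appeared late. Tac2, a tachykinin neuropeptide gene, read 5.68 in MEF, 5.99, 7.19 and 10.19 on days 2, 4 and 6, and 10.79, 11.59 and 11.68 on days 8, 10 and 12. It had the highest late difference, 5.67 ± 0.49 log2 (SD, n = 3), and rose from early to late by 3.57 ± 0.95 (SE, adjusted p = 0.0441, limma). Serpina3n, a secreted serine protease inhibitor, read 5.76 in MEF, 9.47, 6.67 and 7.54 early, and 10.61, 11.14 and 11.24 late. All its late arrays lay above all early arrays, and the rise of 3.10 ± 0.63 (SE) passed (adjusted p = 0.02, limma). Nxpe2 read 4.61 in MEF, 5.37, 5.91 and 6.25 early, and 8.71, 9.13 and 9.24 late.

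**Figure D3:**
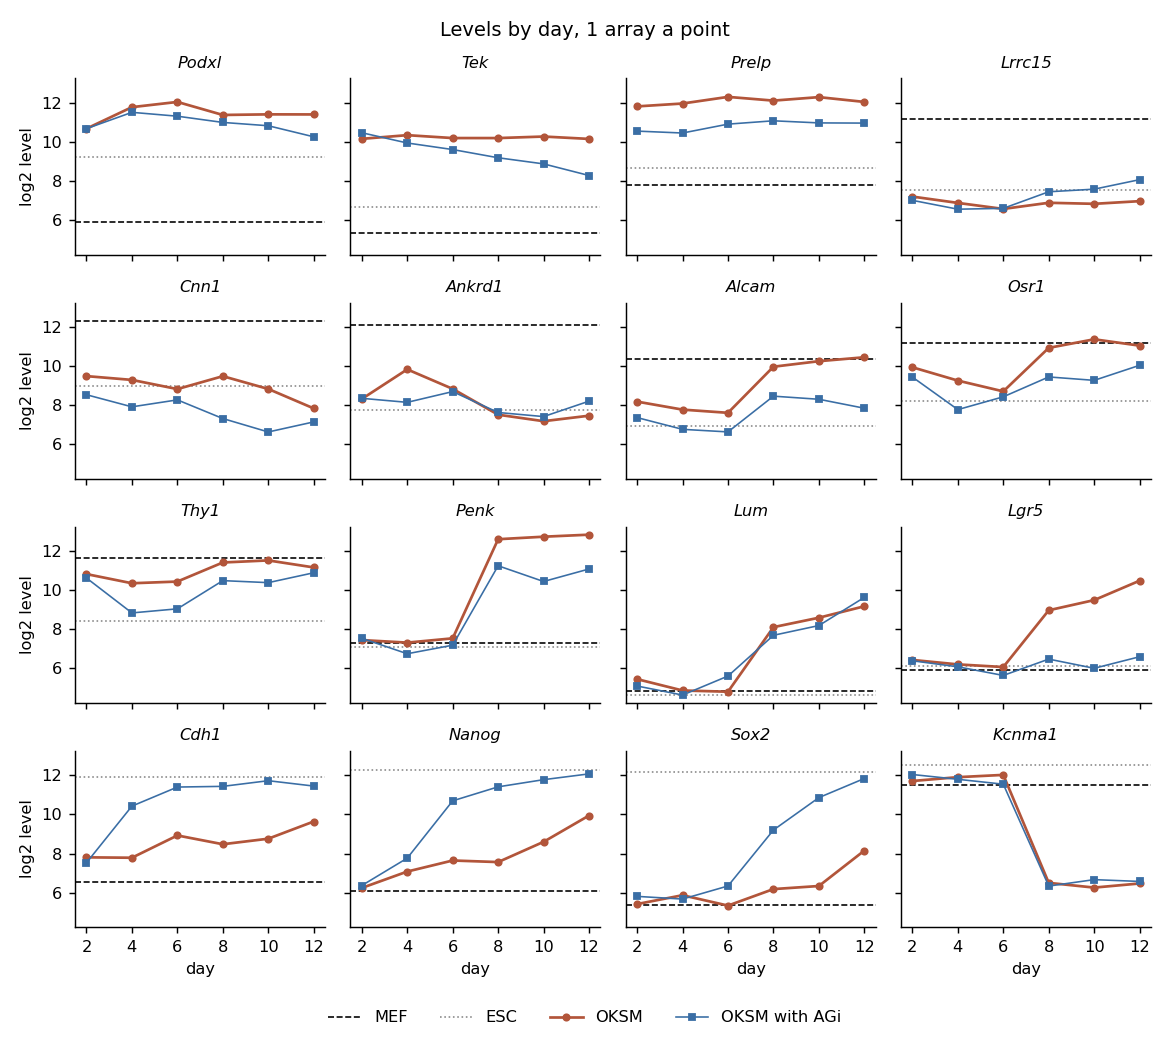
Log2 level of 16 genes by day in cultures with OKSM (red circles) and OKSM with AGi (blue squares), 1 array a point, with the MEF array as a dashed and the ESC array as a dotted line. Podxl, Tek and Prelp stayed above MEF and Lrrc15, Cnn1 and Ankrd1 below it on all OKSM days, Alcam, Osr1 and Thy1 came back to the MEF line from day 8, and Penk, Lum and Lgr5 left it only then.

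The genes held furthest below MEF included Ankrd1, Lrrc15, Tfpi2 and Kcnmb1, which were already low on day 2. Ankrd1, a mechanically induced ankyrin repeat gene, read 12.13 in MEF, 8.32, 9.84 and 8.84 early, and 7.52, 7.18 and 7.47 late. It fell further, by 1.61 ± 0.34 log2 (SE, adjusted p = 0.023, limma), and its late arrays all lay below its early arrays. Lrrc15, a surface protein of TGF-beta-activated fibroblasts, read 11.17 in MEF, 7.21, 6.89 and 6.58 early, and 6.89, 6.84 and 6.98 late. Its late difference was -4.26 ± 0.07 log2 (SD, n = 3), and late and early arrays overlapped. Tfpi2, an extracellular protease inhibitor, read 10.11 in MEF and between 5.79 and 6.17 on all 6 OKSM arrays, below the array median. Kcnmb1, the smooth muscle subunit of the large-conductance potassium channel, read 9.62 in MEF, 6.36, 6.11 and 5.97 early and 5.65, 5.76 and 5.39 late.

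Ccl17, a chemokine gene, read 9.61 in MEF and 5.81, 5.36 and 5.46 on the late days. Map3k7cl read 10.77 in MEF, 7.85, 7.38 and 7.09 early and 6.44, 6.01 and 5.97 late, and fell by 1.30 ± 0.21 log2 from early to late (SE, adjusted p = 0.00918, limma). Tll1, a protease of the family that trims procollagen, read 11.74 in MEF, 9.59, 7.85 and 7.09 early and 7.88, 8.26 and 8.25 late. These 3 genes had left their MEF level by day 2 and none of their late arrays came within 3 log2 of it. Lce1h, a gene of the cornified envelope, read 10.02 in MEF and 6.61, 6.05 and 5.98 on the late days. The small RNA gene Rny1 did not follow this course: it read 9.78 in MEF, 6.12 on day 2, 9.93 and 9.97 on days 4 and 6, and 6.74, 6.28 and 5.19 late.

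The contractile programme had the lowest late median among the lists of fibroblast genes. In this and the other gene lists, a size is the number of members that met the filter on low values. Over all genes tested, 5.26% were called higher and 2.44% lower, and 0.386% had returned from below. From early to late, 10.2% of all genes rose and 6.08% fell (limma). A list count near these shares is no trait of that list. Under the size rule, leaving out a late day can only add calls. Of 32 TGF-beta and contractile target genes, 8 were called lower (25.0%) and 1 higher (3.1%). The median difference from MEF was -0.74 log2 early and -0.93 late, against 0.04 and 0.04 over all genes. Cnn1, encoding the actin-binding calponin, read 12.30 in MEF, 9.49, 9.30 and 8.83 early, and 9.49, 8.83 and 7.84 late. Des, the intermediate filament desmin, read 9.76 in MEF, 7.30, 6.86 and 7.03 early and 7.17, 6.87 and 7.14 late. Myh11, the smooth muscle myosin heavy chain, read 9.15 in MEF and between 6.92 and 7.30 on all 6 OKSM arrays. Late and early arrays overlapped in Cnn1 and Des and not in Myh11, where the difference did not pass (adjusted p = 0.19, limma). Creb3l1, a transcription factor of collagen secretion, read 11.85 in MEF and 9.86, 9.74 and 9.93 late, and Itga5, the fibronectin receptor alpha chain, read 12.55 in MEF and 10.57, 10.38 and 10.48 late. With day 8 left out, which can only add calls, the count of 8 was 14. Against early cultures, 6 of the 32 genes rose and 3 fell, and the counts were 3 and 1 when day 4 or day 8 was dropped, 2 and 0 when it was day 10 and 4 and 0 when it was day 12.

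A few genes of the mesenchymal lists came back to MEF: 2 of 36 transcription factors, 2 of 36 fibroblast surface and identity genes and 1 of 30 collagen chains had returned, while 6, 3 and 2 of them were called lower. Alcam, a cell adhesion molecule, read 10.35 in MEF, 8.19, 7.78 and 7.61 on days 2, 4 and 6, and 9.97, 10.26 and 10.46 on days 8, 10 and 12. It rose by 2.37 ± 0.18 log2 from early to late (SE, adjusted p = 0.000575, limma), and its late mean lay -0.12 from MEF. Osr1, a zinc finger transcription factor of embryonic mesenchyme, read 11.17 in MEF, 9.95, 9.26 and 8.71 early and 10.94, 11.38 and 11.05 late. Col12a1, a fibril-associated collagen, read 12.21 in MEF, 10.82, 9.77 and 9.59 early and 11.94, 11.92 and 11.86 late. In all 3 genes the early and late arrays did not overlap, a gap that the rule for returned genes favours and that is no separate evidence. Snai2, a repressor of epithelial genes, read 11.80 in MEF, 10.68, 10.84 and 10.57 early and 11.45, 11.64 and 11.56 late, a rise of 0.85 ± 0.10 log2 (SE, adjusted p = 0.00299, limma).

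Thy1, the surface glycoprotein by which fibroblasts are sorted, read 11.63 in MEF, 10.83, 10.36 and 10.45 early, and 11.43, 11.53 and 11.17 late. The sorted Thy1+ cells of day 3 read 11.24. Igf2, an imprinted fetal growth factor, read 11.28 in MEF, 10.12, 9.70 and 10.44 early and 11.22, 11.41 and 11.48 late. Loxl1, which crosslinks elastin, read 12.30 in MEF, 10.84, 10.93 and 10.69 early and 11.80, 11.81 and 11.85 late, just inside the limit of 0.5. Mfap2, a microfibril protein, Npr3, the clearance receptor of natriuretic peptides, and Edil3, a matrix ligand of integrins, were among the other genes that came back from below. Their late means lay -0.04, -0.37 and -0.14 log2 from MEF. Edil3 was also among the 21 genes in which both arms stood apart on the late days. Cxcl14, a chemokine, went slightly past MEF, with 11.42 in MEF, 11.31, 9.86 and 9.99 early and 11.88, 11.78 and 11.85 late. Slc5a7, the choline transporter, and Arsj, a sulfatase, had late means -0.24 and -0.19 from MEF.

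The genes that came back from above were few and of mixed kind. Edn1, encoding the vasoconstrictor peptide endothelin, read 8.48 in MEF, 9.73, 10.94 and 10.56 early and 8.26, 8.43 and 8.18 late. It fell by 2.12 ± 0.28 log2 (SE, adjusted p = 0.00453, limma) with no overlap. The rule for returned genes sets late and early means apart, so this gap is no separate evidence. Emx2, a homeobox gene, read 8.34 in MEF, 9.20, 9.52 and 9.68 early and 8.31, 8.64 and 8.39 late. Ticrr, a regulator of replication origin firing, read 8.52 in MEF, 9.77, 9.58 and 9.49 early and 8.88, 9.01 and 8.87 late. Elmod1 read 6.54 in MEF, 6.91, 9.47 and 8.37 early and 6.75, 6.64 and 6.16 late, so that its day 2 array already lay close to MEF and its fall did not pass (adjusted p = 0.0793, limma). Scarna6, Osbp2, Cyp1b1 and B630019K06Rik had late means of -0.21, 0.32, 0.21 and 0.33 from MEF.

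Another group of genes left the MEF level only between day 6 and day 8. Penk, which encodes the opioid precursor proenkephalin, read 7.29 in MEF, 7.45, 7.32 and 7.54 early, and 12.62, 12.75 and 12.85 late. The rise of 5.30 ± 0.10 log2 (SE) passed (adjusted p = 1.05e-06, limma). Cxcl15, a chemokine gene, read 4.82 in MEF, 4.98, 4.88 and 4.87 early and 8.64, 9.43 and 9.76 late. Lgr5, the R-spondin receptor known as a stem cell marker, read 5.93 in MEF, 6.44, 6.21 and 6.07 early and 8.98, 9.50 and 10.49 late. All 3 were at or close to their MEF level on each early day. Penk was at 10.06 in the sorted Thy1+ cells of day 3, whereas Cxcl15 and Lgr5 were at 4.92 and 6.88 there.

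Kcnma1, the pore-forming subunit of the potassium channel whose beta subunit Kcnmb1 fell early, read 11.53 in MEF, 11.71, 11.91 and 12.02 on days 2, 4 and 6 and 6.5, 6.25 and 6.47 on days 8, 10 and 12. It was the lowest of all called genes, with a late difference of -5.12 ± 0.13 log2 (SD, n = 3), and it fell from early to late by 5.48 ± 0.11 (SE, adjusted p = 1.16e-06, limma). The late arrays of the AGi arm read 6.33, 6.66 and 6.57, the sorted Thy1+ cells 6.48 and ESCs 12.52. C1qtnf3, a secreted C1q-family protein, read 10.82 in MEF, 10.13, 10.78 and 10.74 early and 8.92, 8.14 and 7.74 late. Nes, the intermediate filament nestin, read 10.18 in MEF, 9.83, 10.50 and 9.75 early and 8.45, 8.10 and 7.72 late, with late and early arrays apart. The odorant receptor gene Olfr310 went from 10.62 to 11.05 early to 8.19, 8.30 and 8.21 late. Cyp2f2, a cytochrome P450 gene, and Pramel20 also left MEF on the late days only, with late differences of 3.69 ± 0.54 and -2.30 ± 0.12 log2 (SD, n = 3). Penk, Kcnma1 and Olfr310 were among the 21 genes in which the late arrays of both arms stood apart, and Cxcl15, Lgr5, Cyp2f2, C1qtnf3, Pramel20 and Nes were not.

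The Hox genes, which record where along the body axis a fibroblast comes from, changed over the same interval. Of 34 that met the filter, 9 were called lower than MEF (26.5%, against 2.44% of all genes) and 2 higher (5.88%, against 5.26%). These counts became 5 and 5 under the scaling to hybridisation controls. From early to late 7 rose and 15 fell (limma), or 7 and 13 under that scaling. A split by cluster and number, made after the values were seen, put all 7 rises among the 8 Hoxa and Hoxd genes numbered 9 to 13. Of 18 Hoxb and Hoxc genes, 13 fell and 0 rose (limma), and of the 20 genes numbered 1 to 8 in any cluster 13 fell and 0 rose. Hoxd13 read 9.31 in MEF, 8.99, 8.80 and 8.25 early and 10.84, 10.82 and 10.89 late. Hoxb9 read 10.71 in MEF, 9.21, 9.47 and 8.97 early and 8.14, 8.09 and 7.85 late. Hoxc6 read 9.57 in MEF, 9.60, 9.43 and 9.61 early and 7.86, 8.11 and 7.71 late. In none of these 3 genes did late and early arrays overlap. In the AGi arm, all 7 of the rising genes were also higher late than early and all 15 of the falling genes lower. The day of culture and a change of fibroblast preparation cannot be told apart here. This holds for every late against early difference given. It holds as well for every late difference from the MEF array, and so for the called, returned and late-only genes.

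**Figure D4:**
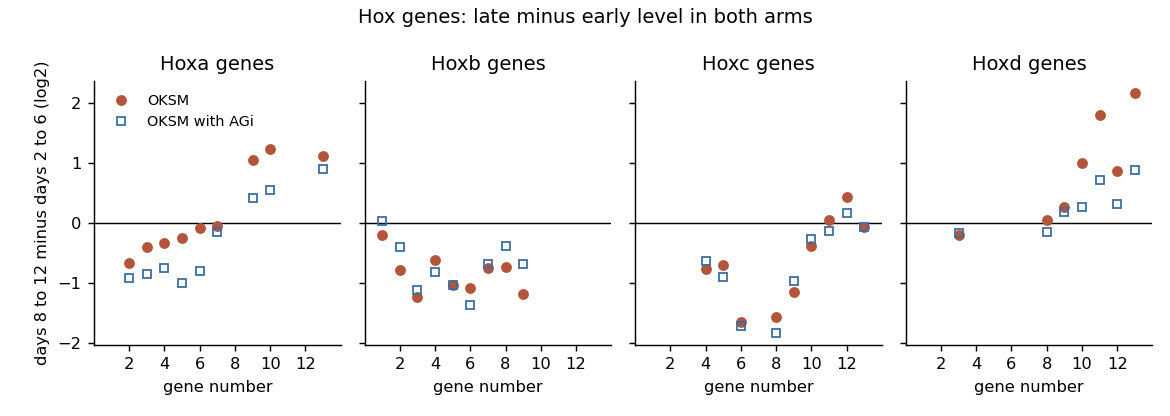
Mean level on days 8, 10 and 12 minus that on days 2, 4 and 6 (log2) of each measured Hox gene, by cluster and gene number, in cultures with OKSM (filled circles) and OKSM with AGi (open squares). Hoxa and Hoxd genes numbered 9 to 13 lie above 0 in both arms, and Hoxb and Hoxc genes numbered 1 to 9 lie below 0 with OKSM alone.

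The matrix lists split by class of molecule. Of 12 small leucine-rich proteoglycans, which bind collagen fibrils, 7 were called higher than MEF and 1 lower, and 8 rose from early to late (limma). The list's median difference was -0.14 log2 early and 2.09 late. Prelp was held from the start, with 7.79 in MEF, 11.83, 11.98 and 12.32 early and 12.12, 12.30 and 12.06 late. Lum, encoding lumican, read 4.83 in MEF, 5.45, 4.87 and 4.81 early and 8.11, 8.60 and 9.18 late. Omd, encoding osteomodulin, went from between 4.40 and 4.68 early to 7.05, 7.48 and 7.64 late. Podn read 7.20 in MEF, 8.14, 7.67 and 7.92 early and 9.54, 9.77 and 10.32 late. Prelp therefore reached its level by day 2, and the other 3 had late arrays above all early arrays. Podnl1 was the member called lower. Lum belonged to the 21 genes that stood apart in both arms, and without it 6 members were called higher. Lum lay below the array median in MEF and on the early arrays of both arms. It met the filter only through late arrays, so it could be counted only as higher or rising. Omd was also below the median on the early OKSM arrays.

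Of 30 collagen chain genes, 1 was called higher (3.33%, against 5.26% of all genes), 2 were called lower (6.67%, against 2.44%) and 1 had returned. The median difference moved from -0.53 log2 early to -0.30 late. The 7 that rose from early to late included Col10a1, a collagen of hypertrophic cartilage, with 8.27 in MEF, 7.74, 7.0 and 7.92 early and 10.72, 10.68 and 10.42 late. Col1a1, the main fibril-forming chain, stayed between: it read 12.60 in MEF, 11.75, 11.18 and 11.20 early and 11.78, 11.74 and 11.63 late, and the difference of 0.34 ± 0.16 (SE) did not pass (adjusted p = 0.174, limma). Col7a1, the anchoring fibril collagen, read 8.72 in MEF and between 6.94 and 7.17 on all OKSM arrays. Without day 4 the number of collagen genes that rose was 4, and without day 2 it was 13. Without day 8 the number called lower was 4. None of 22 genes of collagen modification and crosslinking was called in either direction, against 1 called higher without day 8, and 10 of them rose and 3 fell, or 2 and 0 without day 4, without day 10 or without day 12, and 4 and 1 without day 6 or without day 8.

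Of 27 matrix proteases and inhibitors, 2 were called higher and 6 lower, and 13 rose from early to late (limma), or 8 without day 10. The 2 were Mmp13, the interstitial collagenase of rodents, and Mmp3, stromelysin. Mmp13 read 5.39 in MEF, 5.90, 6.15 and 5.74 early and 8.83, 9.32 and 9.78 late. Mmp3 read 5.20 in MEF, 5.54, 5.07 and 5.32 early and 8.38, 9.13 and 9.91 late. Both were below the array median in MEF and early cultures, and both belonged to the 21 genes that stood apart in both arms, so that 0 remained without those. Mmp3 was below it on the early arrays of both arms, so it met the filter only through late arrays, where it is high. Adam19 and Adam12, membrane-anchored metalloproteases, were held lower, with late differences of -2.55 ± 0.07 and -2.38 ± 0.35 log2 (SD, n = 3).

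Fos and Jun dimers (AP-1) are known regulators of matrix protease genes. The letters TGANTCA, with N any base, were looked for in the 250 bases before to 50 after each RefSeq start (GRCm38.p6). This search is wider than the AP-1 consensus, in which N is C or G. The letters are their own reverse complement, so both strands are covered. They were found in 30 of 237 genes called lower that had a sequence (12.7%), in 44 of 562 called higher (7.83%), in 3 of 40 returned from below (7.5%), and in 721 of 11101 genes tested (6.49%). Of all 32851 windows, 7.81% held them. A match is a description of the letters and not of a bound site. The windows of Mmp3 and Mmp13, which rose late, and of Lrrc15, which fell from day 2, are shown because they hold the same letters, in capitals, beginning 46, 35 and 53 bases before the start, in genes that moved in opposite directions. They were chosen after their values were seen. They lie at chr9:7445572-7445871 (Mmp3, plus strand), chr9:7272264-7272563 (Mmp13, plus strand), chr16:30283205-30283504 (Lrrc15, minus strand).
Mmp3: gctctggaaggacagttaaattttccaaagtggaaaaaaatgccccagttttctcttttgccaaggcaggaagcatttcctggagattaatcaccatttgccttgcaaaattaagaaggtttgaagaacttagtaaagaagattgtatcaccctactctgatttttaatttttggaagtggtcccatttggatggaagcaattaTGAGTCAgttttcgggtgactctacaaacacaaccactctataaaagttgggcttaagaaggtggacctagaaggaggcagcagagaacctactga
Mmp13: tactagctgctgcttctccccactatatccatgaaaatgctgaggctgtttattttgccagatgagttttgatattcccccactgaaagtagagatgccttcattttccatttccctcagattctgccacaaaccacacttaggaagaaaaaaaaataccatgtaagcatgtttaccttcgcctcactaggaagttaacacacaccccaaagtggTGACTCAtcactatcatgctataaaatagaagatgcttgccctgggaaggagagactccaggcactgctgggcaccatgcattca
Lrrc15: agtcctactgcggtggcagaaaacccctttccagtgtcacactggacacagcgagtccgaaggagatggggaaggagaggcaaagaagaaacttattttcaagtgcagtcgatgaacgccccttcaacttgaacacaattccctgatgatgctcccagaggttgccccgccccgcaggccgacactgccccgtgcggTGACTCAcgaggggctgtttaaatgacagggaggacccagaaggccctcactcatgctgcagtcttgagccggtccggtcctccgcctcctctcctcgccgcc

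Of 36 mesenchymal transcription factor genes, 4 were called higher (11.1%, against 5.26% of all genes) and 6 lower (16.7%, against 2.44%) than MEF. Of the 36, 2 had returned, and 19 rose and 2 fell from early to late (limma). Without day 4 the counts became 11 and 0, and dropping day 12 or day 10 gave 12 and 0 or 13 and 0. The list's median difference went from -0.29 to 0.15 log2. Meox2, a homeobox gene of the mesenchyme, read 6.57 in MEF, 9.80, 7.82 and 7.72 early and 9.50, 9.57 and 9.71 late, and Osr2 read 6.91 in MEF, 7.12, 6.45 and 6.47 early and 9.31, 10.20 and 10.08 late. Foxc2, a forkhead gene of mesoderm, stayed low, with 9.91 in MEF, 7.37, 7.30 and 7.15 early and 8.20, 7.62 and 7.96 late. It rose by 0.65 ± 0.15 log2 (SE, adjusted p = 0.0282, limma) and still lay -1.98 from MEF. Zeb1, a repressor of Cdh1, read 8.37 in MEF, 8.13, 7.95 and 7.92 early and 8.31, 8.33 and 8.28 late.

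Among 36 other fibroblast surface and identity genes, 3 were called higher (8.33%, against 5.26% of all genes), 3 lower (8.33%, against 2.44%), and 2 had returned. Cd34, a sialomucin of progenitor cells and fibroblasts related to Podxl, read 8.52 in MEF, 11.49, 11.95 and 12.05 early and 11.88, 11.83 and 11.83 late. Nt5e, the ecto-nucleotidase CD73, read 7.93 in MEF, 9.66, 8.83 and 9.18 early and 10.66, 10.88 and 10.94 late. Efemp1, a fibulin, read 9.45 in MEF and between 11.44 and 11.92 on all OKSM arrays. Each of these 3 lay above MEF on all early arrays. From early to late 11 of the 36 rose and 1 fell (limma), with 5 rising when day 10 was left out and 6 when day 4 was.

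**Figure D5:**
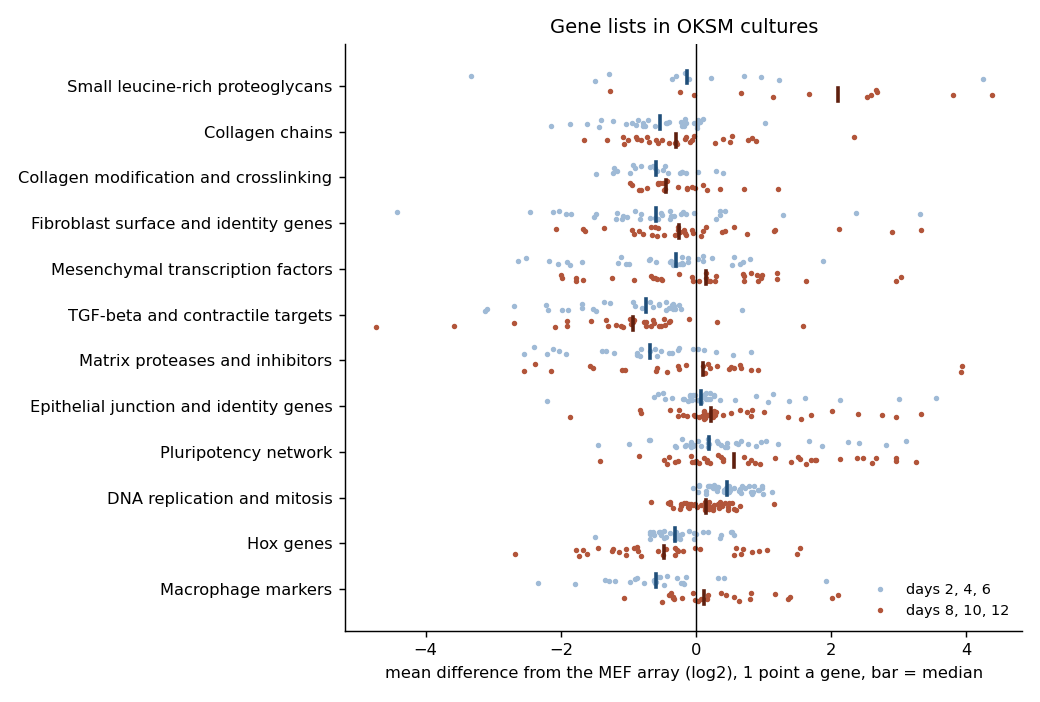
Mean difference from the MEF array (log2) of each measured member of 12 gene lists on days 2, 4 and 6 (blue) and on days 8, 10 and 12 (red), 1 point a gene, with the list median as a bar. The late median of the small leucine-rich proteoglycans lay at 2.09 and that of the TGF-beta and contractile targets at -0.93.

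The scaling to hybridisation controls lifted the median late difference of all genes from 0.04 to 0.44 log2 and changed the counts of these lists. Under it 12 mesenchymal transcription factors were called higher and 4 lower, 5 and 2 fibroblast identity genes, 3 and 1 collagen chains, 8 and 0 small leucine-rich proteoglycans, and 1 and 7 contractile targets. Matrix proteases and inhibitors then had 4 higher and 4 lower, collagen modification genes 2 and 0, epithelial genes 11 and 1, p53 targets and cell cycle inhibitors 8 and 1, inflammatory genes 5 and 2, Wnt genes 7 and 2, BMP genes 9 and 1, genes of glycolysis and hypoxia 7 and 1, keratinocyte genes 1 and 1, imprinted growth genes 2 and 0, insulin-like growth factor genes 2 and 0, and macrophage genes 5 and 0. The late medians of fibroblast identity genes and collagen chains changed sign under it.

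Epithelial genes stood above MEF in part. Of 39 that met the filter, 7 were called higher (17.9%, against 5.26% of all genes) and 1 lower (2.56%, against 2.44%). The late median was 0.22 log2. Cdh1, E-cadherin, read 6.56 in MEF, 7.80, 7.78 and 8.92 early and 8.47, 8.76 and 9.64 late, against 11.91 in ESCs. Its early and late values overlapped (adjusted p = 0.197, limma). Perp, a desmosome protein and p53 target, read 7.19 in MEF, 9.87, 11.13 and 11.22 early and 10.67, 10.38 and 10.50 late, and Dsp, desmoplakin, read 5.85 in MEF and 8.29, 8.44 and 9.07 late. Ehf, an epithelial Ets factor, read 5.91 in MEF, 6.88, 8.36 and 8.88 early and 8.74, 8.86 and 8.98 late, and 5.87 in ESCs. Perp, Dsp and Ehf were above their ESC level on all late arrays, and Cdh1 was below. Epcam read 5.99 in MEF, 5.69, 6.03 and 6.77 early and 7.0, 7.29 and 8.79 late (adjusted p = 0.0712, limma). Cdh2, N-cadherin, read 11.15 in MEF and 10.76, 10.59 and 10.44 late.

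Of 42 pluripotency genes, 11 were called higher than MEF (26.2%, against 5.26% of all genes) and 1 lower (2.38%, against 2.44%). The late median was 0.55 log2. Under the scaling to hybridisation controls the counts were 18 and 0 and the median 0.95. Alpl, alkaline phosphatase, read 7.04 in MEF, 9.34, 9.88 and 10.33 early and 9.93, 9.99 and 10.08 late. Nr0b1 read 5.91 in MEF, 6.33, 7.98 and 9.02 early and 8.68, 8.87 and 9.96 late, and Slc2a3, a glucose transporter, read 7.48 in MEF and 10.34, 10.32 and 10.64 late. Nanog, a core pluripotency factor, read 6.09 in MEF, 6.24, 7.08 and 7.64 early and 7.56, 8.60 and 9.95 late, against 12.26 in ESCs. The late difference was 2.61 ± 1.20 log2 (SD, n = 3), and late against early did not pass (adjusted p = 0.0928, limma). From early to late 6 members of the list rose (limma), or 0 without day 4 or without day 10 and 1 without day 12. The day 12 array was the highest of the late arrays for Nanog, Sox2, Epcam and Cdh1.

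The arrays cannot say whether a probe set of a delivered factor reads the transgene or the cells' own gene. Klf4 read 9.62 in MEF, 11.89, 12.11 and 12.08 early and 11.66, 11.78 and 11.78 late, against 11.23 in ESCs. Sox2 read 5.36 in MEF, 5.41, 5.86 and 5.33 early and 6.18, 6.34 and 8.15 late, against 12.19 in ESCs. Pou5f1, the gene of Oct4, read 6.80 in MEF, 7.24, 7.35 and 7.20 early, 7.10, 7.17 and 7.34 late, and 8.13 in ESCs. Klf4 was called higher than MEF, Sox2 missed the threshold on days 8 and 10, and Pou5f1 missed it on every day. Myc was called lower, with 11.40 in MEF, 9.64, 10.22 and 10.01 early and 10.01, 10.01 and 9.92 late.

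Other lists moved in few members. Of 45 genes of DNA replication and mitosis, 0 were called in either direction against MEF by the size rule, and 15 fell from early to late (limma), which became 1 when either day 4 or day 12 was dropped, 2 with day 8 dropped, 3 with day 10 dropped and 1 under the scaling to hybridisation controls. Of 27 p53 targets and cell cycle inhibitors, 5 were called higher (18.5%, against 5.26% of all genes) and 2 lower (7.41%, against 2.44%). Fas, a death receptor, read 6.81 in MEF and 8.92, 9.15 and 8.70 late, and Rb1, the retinoblastoma gene, read 9.61 in MEF, 11.36, 11.43 and 11.49 early and 11.02, 11.07 and 10.99 late. Of 30 AP-1 and immediate early genes, 1 was called higher (3.33%, against 5.26% of all genes), Nr4a1. Another 3 were called lower (10.0%, against 2.44%), Dusp5, Egr2 and Ier5. The counts were 2 and 0 under the scaling to hybridisation controls and 2 and 4 without day 8. Ptgs2, cyclooxygenase 2, read 12.69 in MEF, 9.20, 11.01 and 10.19 early and 10.11, 9.87 and 8.95 late, and was 1 of 3 inflammatory genes of 33 called lower, with 3 called higher. Of 26 Wnt genes and targets 4 were called higher, among them Sfrp2, a secreted Wnt modulator, with 7.12 in MEF, 8.02, 9.78 and 8.14 early and 10.94, 10.89 and 10.78 late. Of 25 genes of glycolysis and the hypoxia response 4 were called higher, or 6 without day 8, and 2 lower, the latter including Vegfa, with 11.21 in MEF and 9.64, 9.69 and 9.75 late.

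Lists of other cell types and growth pathways held further genes far from MEF. Of 21 neural and glial genes 5 were called higher, or 4 without the genes that stood apart in both arms, and 1 lower. Gabra2, a GABA receptor subunit, read 5.19 in MEF, 8.08, 11.40 and 11.15 early and 8.61, 8.11 and 7.88 late, and Stmn2, a microtubule regulator, read 7.99 in MEF and 11.27, 11.07 and 10.94 late. Of 25 genes of the BMP pathway 5 were called higher and 1 lower. Bmp6 read 6.56 in MEF, 7.74, 9.32 and 9.24 early and 8.44, 8.54 and 8.07 late, and Id4, an inhibitor of basic helix-loop-helix factors, read 7.32 in MEF and 9.19, 8.95 and 9.12 late. Gabra2 and Bmp6 were thus highest on days 4 and 6. Of 12 bone and cartilage genes 3 were called higher and 1 lower, or 5 and 1 without day 8 and 6 and 0 under the scaling to hybridisation controls. Mgp, an inhibitor of calcification, went from 11.57 in MEF and 11.42, 11.43 and 11.79 early to 12.69, 12.80 and 12.91 late.

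Of 11 keratinocyte genes 1 was called higher and 2 lower. Itgb4, the hemidesmosome integrin, read 7.08 in MEF and 10.54, 10.63 and 10.66 late, and Gjb2, a connexin, read 11.49 in MEF, 7.65, 9.03 and 8.30 early and 9.34, 8.05 and 7.88 late. Of 14 skeletal muscle genes 2 were called lower, among them Acta1, skeletal actin, with 10.82 in MEF and 7.84, 7.62 and 7.84 late. Of 17 adipocyte and lipid genes 2 were called higher, led by Apod, apolipoprotein D, with 5.93 in MEF, 8.76, 7.83 and 7.94 early and 9.15, 9.63 and 10.11 late. Of 19 interferon response genes 2 were called higher, Tap1 and Xaf1, with late differences of 1.36 ± 0.21 and 1.36 ± 0.36 log2 (SD, n = 3). Of 17 imprinted growth genes 2 were called higher, Mest and Plagl1, and Rian was called lower, or 2 and 2 without day 8. Of 14 genes of insulin-like growth factor signalling Igfbp3 was called higher and Pappa and Igfbp7 lower, or 2 and 2 without day 8. Pappa, a protease that cuts the growth factors' binding proteins, lay -1.62 ± 0.26 log2 from MEF (SD, n = 3), with 8.13, 9.09 and 9.03 early and 9.15, 9.36 and 9.66 late.

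Macrophage genes were lower on days 4 and 6 than on the other days. The 10 macrophage markers averaged 8.07 log2 in MEF, 8.39, 6.71 and 6.95 on days 2, 4 and 6, and 8.33, 8.57 and 8.79 on days 8, 10 and 12. Of the 10, 9 were at or above the array median in MEF and on each late array, against 6 in ESCs. Of 26 macrophage genes 3 were called higher than MEF (11.5%, against 5.26% of all genes), or 5 without day 8, and 1 had returned. Adgre1, a surface receptor of macrophages, read 6.51 in MEF, 7.14, 5.14 and 5.37 early and 7.63, 7.81 and 8.23 late, and Lyz2, lysozyme, read 10.27 in MEF, 9.72, 6.81 and 7.27 early and 9.93, 10.12 and 10.73 late. From early to late 6 of the 26 rose (limma), which became 23 with day 2 dropped, 0 with either day 4 or day 10 dropped, 1 with either day 6 or day 12 dropped and 2 with day 8 dropped. The part of macrophages in the other late against early differences was not tested.

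The array also reads the loci of 160 microRNA genes that met the filter, host genes left out. Of these, 7 were called higher (4.38%, against 5.26% of all genes): Mir19a, Mir218-1, Mir23b, Mir423, Mir505, Mir5125 and Mir92b. Another 20 were called lower (12.5%, against 2.44%), and 2 had returned from below. These genes lie outside the rule for named genes and were chosen after their values were seen. The probe sets read the precursor locus, so the arm and the level of the mature RNA are unknown, and near-identical copies cannot be separated. Mature sequences from RefSeq (GRCm38.p6), 5′ to 3′, with the seed, bases 2 to 8, in capitals, show that the let-7 member called lower and the let-7 member that returned share a seed.
mmu-let-7a-5p: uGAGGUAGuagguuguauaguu
mmu-let-7e-5p: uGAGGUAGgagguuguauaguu
mmu-miR-181b-5p: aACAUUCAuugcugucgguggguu
mmu-miR-196a-5p: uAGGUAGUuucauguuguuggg
mmu-miR-218-5p: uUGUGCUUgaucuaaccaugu

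Mirlet7a-1 read 8.01 in MEF, 7.56, 7.42 and 7.33 early and 6.74, 6.68 and 6.33 late, and fell from early to late (adjusted p = 0.00702, limma). Mirlet7e, with the same seed, read 7.72 in MEF, 6.49, 6.55 and 6.97 early and 7.47, 7.57 and 7.33 late, and rose (adjusted p = 0.0129, limma). The 2 loci thus moved in opposite directions without overlap between late and early arrays. Mir181b-1, the other that returned, read 7.59 in MEF, 6.02, 6.21 and 6.99 early and 7.37, 7.81 and 7.12 late.

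Mir196a-1, which lies within the Hoxb cluster, read 7.76 in MEF, 7.36, 7.70 and 7.66 early and 6.16, 6.39 and 5.91 late, and fell with the neighbouring Hoxb genes (adjusted p = 0.002, limma). Mir218-1, which lies in an intron of the axon guidance gene Slit2, read 7.34 in MEF, 7.44, 7.89 and 8.08 early and 9.58, 9.02 and 9.25 late. Mir19a lay below the array median in MEF and on all OKSM arrays, with 4.37 and between 5.66 and 6.01, and met the filter through AGi arrays. No other gene called higher or lower did so on all 7 of these arrays. Of the 20 called lower, 7 were on chromosome 12. Other tested loci of that chromosome were not called, for example Mir540, with 7.33 in MEF and 7.10, 7.14 and 7.16 late. The tested loci on it were not counted, so the 7 are given without a share. There Mir493 read 7.67 in MEF, 5.91, 5.90 and 5.92 early and 6.60, 6.38 and 6.17 late, and Mir382 read 8.91 in MEF and 7.58, 7.66 and 7.78 late. Rian, a noncoding RNA of the imprinted Dlk1-Dio3 region of that chromosome, read 10.58 in MEF, 9.78, 9.41 and 9.26 early and 9.47, 9.54 and 9.25 late. Another 8 of the 20 belonged to Mir297, Mir466 and Mir669, a family of many near-identical copies. Mir669j and Mir669m-1 were tested and not called, and Mir669j rose from early to late by 0.80 ± 0.12 log2 (SE, adjusted p = 0.00649, limma). Mir669h read 9.43 in MEF, 8.45, 8.08 and 8.02 early and 5.39, 5.47 and 4.96 late, and Mir466b-2 read 10.81 in MEF, 9.76, 10.04 and 10.05 early and 7.02, 6.91 and 6.71 late. Both stood apart on the late days in the AGi arm too.

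Against late cultures with AGi, read on the same days and with the day as a block, 2239 genes were higher with AGi (15.7% of those tested) and 2361 were lower (16.6%, limma). When day 10 was dropped the counts were 428 and 776, and when day 8 was dropped 1474 and 1718. Scaled to the hybridisation controls they were 1237 and 3257. The AGi arrays gave 1181, 1414 and 1507 genes at least 1 log2 above the shared MEF array and 905, 949 and 1009 below it on days 8, 10 and 12. Many fibroblast genes were lower with AGi: 26 of 36 mesenchymal transcription factors, 25 of 36 fibroblast identity genes, 15 of 30 collagen chains and 24 of 32 contractile targets. Macrophage genes moved with them, 21 of 26 lower and 0 higher with AGi, and the 10 macrophage markers averaged 8.33, 8.57 and 8.79 with OKSM alone and 7.43, 7.13 and 7.30 with AGi on days 8, 10 and 12. Of these 10 markers, 7 were at or above the array median on each of these AGi arrays, and 6 in ESCs. Of 45 genes of DNA replication and mitosis 30 were higher with AGi and 1 lower. The part of either in the fibroblast differences was not tested. Of 42 pluripotency genes 35 were higher with AGi and 1 lower, and of 39 epithelial genes 30 were higher and 1 lower. A member low with OKSM alone that met the filter through late AGi arrays could hardly read lower with AGi. Over all genes, 168 lay below the array median in MEF and on all OKSM arrays. How many are in these lists was not counted. Of 6 pluripotent markers, 2, 2 and 4 reached the median on days 8, 10 and 12 with OKSM alone, and 6, 5 and 6 with AGi.

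Several genes that lay at the MEF level late in OKSM alone lay below it with AGi. Npr3 read 9.11, 9.17 and 9.38 with OKSM alone and 6.44, 6.35 and 6.67 with AGi, a difference of -2.74 ± 0.10 log2 (SE, adjusted p = 0.000494, limma). Igf2 differed by -3.05 ± 0.24 (adjusted p = 0.00123), Alcam by -2.02 ± 0.21 (adjusted p = 0.00225) and Cxcl14 by -2.20 ± 0.24 (adjusted p = 0.00261). Edil3 and Lum did not pass, with differences of -0.19 ± 0.14 and -0.12 ± 0.19. Tac2, Cxcl15 and Lgr5, which rose late with OKSM alone, were at 7.06, 6.15 and 6.72, at 5.21, 5.0 and 5.28 and at 6.48, 6.01 and 6.60 on days 8, 10 and 12 with AGi. Among the genes held low, Lrrc15 was 0.81 ± 0.13 higher and Cnn1 1.69 ± 0.31 lower with AGi (adjusted p = 0.0084 and 0.0112, limma), while Tfpi2, Kcnmb1 and Myh11 did not pass, with differences of 0.07 ± 0.10, -0.12 ± 0.10 and -0.04 ± 0.10 (SE). Nanog, Sox2 and Cdh1 were higher with AGi by 3.06 ± 0.31, 3.75 ± 0.27 and 2.58 ± 0.24 log2 (adjusted p = 0.00211, 0.00106 and 0.00185, limma).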

How the data were processed

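RNA of each culture was hybridised to 1 Affymetrix mouse gene array. The deposited values are log2 levels of 41345 probe sets on 18 arrays, made with RMA in Affymetrix Expression Console per the submitters' processing notes. The RMA settings and a genome build were not given in the sources used here. No scanner intensities or counts were used, so that the number of arrays limits the precision. Of the probe sets, 23521 carry 1 gene symbol, 1814 several and 15820 none, and 190 are controls. Each gene was read from whichever of its probe sets had the highest mean (22180 genes, 1082 with more than 1 probe set). Genes entered when they reached the array median in MEF or in 2 of 3 arrays of a group. Late against early OKSM and late AGi against late OKSM (day as a block) were compared in limma (version 3.58.1, under R 4.3.3) with Benjamini-Hochberg adjustment over 14239 genes, a threshold of 0.05, and 4 and 2 residual degrees of freedom. On simulated data with 200 changed genes, late against early recovered 41.8%, 85.1% and 93.9% of changes of 0.5, 1 and 2 log2, and AGi against OKSM recovered 1.49%, 38.8% and 92.4%. Far more genes than 200 were called in the data, which makes the adjusted threshold less strict there, so these shares need not hold for the data.

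The cultures and the 27 gene lists were chosen with earlier results of these data known. The named genes are the 12 highest and 12 lowest called genes, the 8 returned from either side with the largest early difference, the 6 highest and 6 lowest of the late-only genes, up to 4 called and 2 returned members a list, and 12 key genes; other names were chosen after their values were seen. Lists were described by counts and medians. Alternatives changed the filter, the probe set rule, the normalization, the thresholds, the test and the arrays used.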

Additional observations from a re-analysis of the deposited data

How the results depend on the processing

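The single MEF array sets every difference from it, and its own spread is unknown. Under limma with that array assumed to vary like the others, so that the spread came wholly from the other arrays, 2760 genes were higher and 1601 lower. A threshold of 1.5 log2 gave 349 higher and 139 lower, 2 and 14 returned from higher and lower, 40 and 7 on late days only, and 96.7% of the early difference left on day 12. A filter at the 75th percentile left 74 and 17 genes on late days only. Repeated quantile normalization gave 16 returned from higher, with 107.5% left on day 6 and 91.8% on day 8, and 640 of the 749 genes called higher remained. Judging by the mean of the late arrays gave 20 and 92 returned and 232 higher on late days only. A limit of 0.25 log2 left 0 and 9 returned. Scaling to the hybridisation controls, chosen after seeing the data, gave 1724 higher and 166 lower, 187 and 17 on late days only, 223 genes lower late than early, 1237 higher with AGi, and 100.9%, 98.9%, 101.0% and 99.2% left on days 6, 8, 10 and 12; the cause of these shifts was not tested.

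Leaving out 1 array at a time gave 775 to 919 genes higher and 364 to 410 lower than MEF. The size rules ask for every late array, so leaving out a late array could only add calls, and these counts do not show stability. Returned genes numbered 9 to 18 and 43 to 78, and genes on late days only 119 to 209 and 27 to 42. The late against early test gave 546 to 1813 higher and 203 to 1046 lower. Leaving out 1 day in both arms gave 428 to 2777 higher and 776 to 2743 lower with AGi. Of the 139 named genes, no called difference changed sign under the alternatives run. Most of these alternatives could not change it. A called gene lies at least 1 log2 from MEF on every late array, more than the shift by hybridisation controls. Leaving out a late array or changing the filter keeps its side too. Without day 10, 18 of the 139 lost the late against early call. Late and early OKSM share no day and were not paired. AGi and OKSM were paired by day, and without the day as a block 2266 genes were higher and 2404 lower with AGi.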
